A study of Mus musculus with 12 samples.

Results

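The nuclear genes of oxidative phosphorylation were measured in tumors of mice in which Cre recombinase switched on a MYCN oncogene. They comprise the genes with 1 platform symbol that begins with Nduf, Uqcr, Atp5 or Cox and a digit, together with Sdha, Sdhb, Sdhc, Sdhd, Cycs and Cyc1. Assembly factors (Ndufaf genes and Cox10 to Cox20) were left out of this set, and where a gene had several probe sets, the brightest over the 12 tumors stood for it. The rule gave 84 of 18193 genes, of which 36 belong to complex I, 4 to complex II, 9 to complex III, 17 to complex IV and 17 to complex V, and 1 is cytochrome c. None of these genes was chosen by its measured difference.

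Expression arrays were made from 9 pancreatic tumors, numbered 1 to 5 and 9 to 12, and 3 pituitary tumors, numbered 6 to 8. The labels call the latter brain tumors, and the study's text locates tumors of the head at the pituitary gland. All tumors came from untreated LSL-MYCN;hGFAP-Cre double transgenic mice of mixed strain background. In these mice a human GFAP promoter drives Cre, which removes a floxed stop cassette in front of the MYCN and luciferase transgenes. The model therefore covers the cells that use this promoter and their progeny. The mice's ages were not given for the arrayed tumors, wild-type tissue was not analysed here, and no source used here tells which tumors came from the same mouse. The tests treat the tumors as independent, and precision is limited by how few arrays there are.

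Values were log2 signals, on which a difference of 1 is 2-fold. Markers followed the labels in part. With limma at an adjusted p under 0.05, 7 of 9 measured genes of the endocrine pancreas passed toward the pancreatic side and 10 of 11 genes of the anterior pituitary toward the other. Mycn read between 6.45 and 7.14 in the pancreatic tumors and between 6.17 and 6.52 in the pituitary tumors, and no source used here tells whether its mouse probe set reads the transgene. Several tumors stood apart. Hepatocyte genes were at 15.01 for Alb and 14.63 for Apoa1 in pancreatic tumor 2, where the median neuroendocrine gene lay 3.11 below its 12-tumor mean (a deviation of -3.11). Pancreatic tumors 3 and 4 carried hepatocyte and acinar transcripts, with median deviations of 3.18 and 3.70 for the hepatocyte list and 4.94 and 3.94 for the acinar list. Mean signals of the 7 hepatocyte genes were 14.04, 11.28 and 11.59 in these tumors, numbers 2, 3 and 4, while the rest read 5.79 to 8.57. Pituitary tumors 6 and 8 carried astrocyte transcripts (median deviations 3.73 and 3.98), and pituitary tumor 8 also choroid plexus transcripts. Fewer cells of a type and less RNA per cell cannot be told apart in such bulk samples.

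Oxidative phosphorylation takes place at the inner mitochondrial membrane. Complex I takes electrons from NADH and complex II from succinate, both pass them to ubiquinone, complex III hands them to cytochrome c, and complex IV hands them to oxygen. Complexes I, III and IV pump protons, and complex V, the ATP synthase, lets them flow back to make ATP. A few subunits are encoded by the mitochondrial genome, and the rest, which are described here, are nuclear genes. Several of the nuclear subunits exist as a broadly used isoform and a tissue-restricted one. MYC proteins are known to act on nuclear genes of mitochondrial function, and NRF1 and GABPA are factors known for binding at promoters of respiratory chain genes.

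The promoters of 4 genes are shown because the results below turn on them, and because they span promoters with several respiratory chain motifs and with none. They are the 250 bases before the annotated start, from RefSeq on GRCm38.p6, all on the minus strand, written 5′ to 3′. Cox6a1 (chr5:115348959-115349208) encodes a broadly used subunit of complex IV, Sdhd (chr9:50603850-50604099) a membrane anchor of complex II, Cox7a2l (chr17:83514334-83514583) a factor that joins complexes III and IV, and Cox7b2 (chr5:71548206-71548455) a testis isoform of complex IV. Each window lies outside its own gene, and that of Sdhd overlaps the neighbouring protein-coding gene Timm8b, while the other 3 overlap no other RefSeq gene. Capitals mark matches, on either strand, to CCGGAAG (ETS factors, which include GABPA), CACGTG (the E-box that MYC and MAX bind), ATTGG (the CCAAT box), CAAGGTCA (ERRA) and the motifs of NRF1 and YY1, which are 10 bases long with 1 free position each. GCGCATGCGC in Cox6a1 is an NRF1 match.
Cox6a1: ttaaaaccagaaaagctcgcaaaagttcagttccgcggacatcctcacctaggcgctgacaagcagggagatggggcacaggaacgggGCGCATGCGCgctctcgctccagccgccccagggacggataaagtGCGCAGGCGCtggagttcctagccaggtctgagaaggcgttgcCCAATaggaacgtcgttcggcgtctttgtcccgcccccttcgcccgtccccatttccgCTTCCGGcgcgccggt
Sdhd: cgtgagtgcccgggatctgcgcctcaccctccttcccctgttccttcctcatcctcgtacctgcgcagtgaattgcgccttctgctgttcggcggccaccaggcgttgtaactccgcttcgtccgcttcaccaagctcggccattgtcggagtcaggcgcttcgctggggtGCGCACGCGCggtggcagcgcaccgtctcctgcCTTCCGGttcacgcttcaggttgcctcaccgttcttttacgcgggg
Cox7a2l: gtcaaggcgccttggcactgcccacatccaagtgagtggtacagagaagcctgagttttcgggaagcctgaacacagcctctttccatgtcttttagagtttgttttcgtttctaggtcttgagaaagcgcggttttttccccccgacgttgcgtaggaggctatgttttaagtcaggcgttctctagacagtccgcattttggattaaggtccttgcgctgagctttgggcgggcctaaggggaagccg
Cox7b2: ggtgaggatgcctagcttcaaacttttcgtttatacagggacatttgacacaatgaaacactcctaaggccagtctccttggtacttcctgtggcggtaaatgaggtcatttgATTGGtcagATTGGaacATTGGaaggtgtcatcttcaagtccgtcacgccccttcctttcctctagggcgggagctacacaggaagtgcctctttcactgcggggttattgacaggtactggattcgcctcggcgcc

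The Cox6a1 window held NRF1 matches at -162 to -153 and at -117 to -108, a CCAAT box at -74 to -70 and an ETS match at -16 to -10, counted from the annotated start. The Sdhd window held an NRF1 match at -79 to -70 and an ETS match at -46 to -40. In the Cox7b2 window 3 CCAAT boxes lay between -137 and -116, and none of the 6 motifs occurred in the printed bases of Cox7a2l. Sdhd also had an ERRA match, in the bases after the start. A match says nothing of binding.

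Over all genes with a window, which here also holds 50 bases after the start, 68 of the 84 genes could be matched. The NRF1 motif occurred in 15 of the 68 (22.1%), against 8.63% of the 14369 array genes with a window and 5.19% of all 27025 genes. The ETS motif occurred in 17 (25.0%, against 15.0% of array genes and 9.93% of all genes). ERRA matches were found in 4 (5.88%, against 1.59% and 1.76%) and YY1 matches in 3 (4.41%, against 2.32% and 1.41%). The other motifs had shares near those of array genes, with the E-box in 6 (8.82%, against 10.3%) and the CCAAT box in 29 (42.6%, against 42.0%). The median GC content of the windows was 58.7% for the oxidative phosphorylation genes and 58.3% for array genes. NRF1 matches were spread over complexes I (5 genes), II (2), III (1), IV (1) and V (6), and E-box matches over complexes I (Ndufa7 and Ndufv1) and V (Atp5g1, Atp5g3, Atp5l and Atp5pb).

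**Figure D1:**
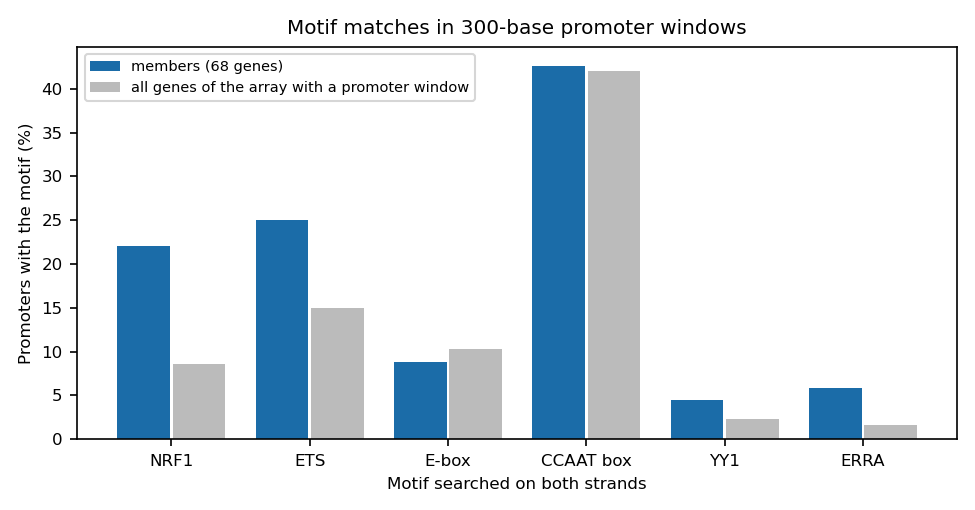
Share of promoter windows (y axis, percent) with at least 1 match to each of 6 motifs (x axis), for the 68 oxidative phosphorylation genes with a window (blue) and for all array genes with a window (grey). The blue bar is 22.1% against 8.63% for NRF1 and 25.0% against 15.0% for ETS, while the bars for the E-box and the CCAAT box lie close together.

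Whether the tumors of the 2 sites differ in these genes was asked for each probe set with limma. Of the 84 genes 0 were higher and 0 were lower in the pancreatic tumors at an adjusted p under 0.05, where 5.92% of all genes passed (1.63% higher in pancreatic and 4.29% higher in pituitary tumors). All 174 probe sets of these genes gave 0 calls. At an unadjusted p under 0.05, 7 of the 84 passed, 1 higher in the pancreatic and 6 higher in the pituitary tumors, against 23.5% of all genes. The median difference, pancreatic minus pituitary, was -0.11 over the 84 genes and 0.04 over all genes. It ran from -1.33 to 0.72, with 52 genes below 0 and 32 above.

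The intervals describe the probe set that stood for each gene, and other probe sets of a gene can fall outside them. For Ndufs4 the interval ran from -0.62 to 0.64, while another of its probe sets was at -1.03 ± 0.35. For Uqcr10 it ran from -0.54 to 0.63, and another probe set was at 0.76 ± 0.41. For 69 of the 84 genes (82.1%) the 95% interval lay wholly between -1 and 1, against 51.2% of all genes. On the probe sets that stood for the genes, the groups did not overlap for 2, Cox6a1 and Cox7b2. Of all genes 9.42% had groups that did not overlap (4.21% higher in pancreatic and 5.21% higher in pituitary tumors). Most of the 84 genes were read well: 78 lay above the array's median probe set, which stands in here for background, in all 12 tumors. The others were Cox6b2, Cox7a1, Cox7b2, Cox7c and Cox8b, at or below it in 3 to 11 tumors, and Ndufb4, an accessory subunit of complex I, at or below it in all 12.

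**Figure D2:**
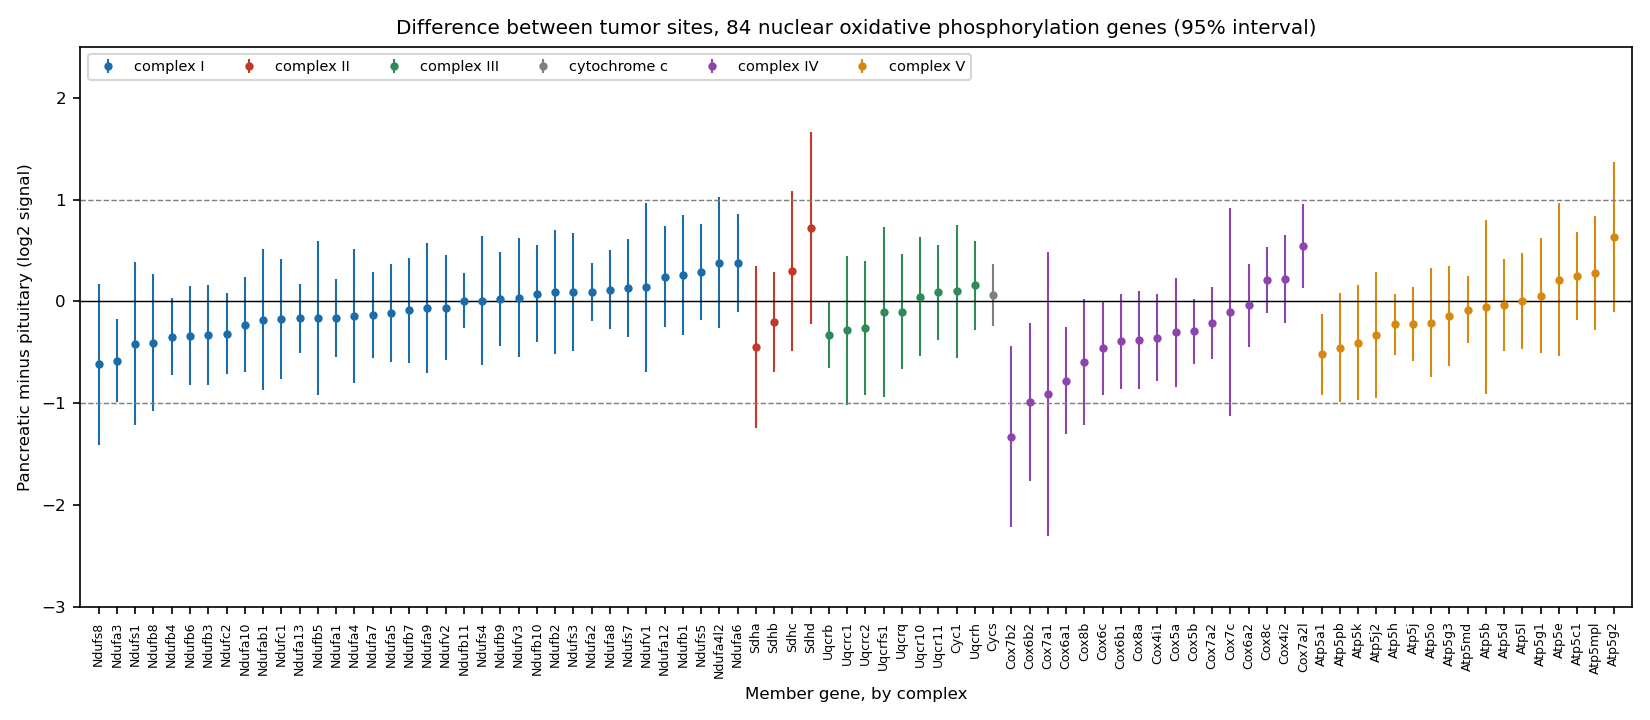
Difference between pancreatic and pituitary tumors (y axis, log2 signal) with its 95% interval for each of the 84 genes (x axis), grouped and coloured by complex. Most intervals cross 0 and stay between the dashed lines at -1 and 1, and the largest differences, at -1.33 and 0.72, belong to Cox7b2 and Sdhd.

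In complex I the median difference of the 36 genes was -0.08. It was 0.02 over the 6 measured core subunits (Ndufv1, Ndufv2, Ndufs1, Ndufs3, Ndufs7 and Ndufs8) and -0.10 over the 30 accessory subunits. Ndufs8, a core iron-sulfur subunit, had the lowest value. It read from 10.48 to 12.40 (median 11.75) in the pancreatic tumors and 12.25, 12.04 and 12.26 in pituitary tumors 6, 7 and 8, a difference of -0.62 ± 0.36 (SE, limma adjusted p = 0.381). The accessory subunit Ndufa6 had the highest, with 11.43 to 12.55 (median 11.79) against 11.29, 11.46 and 11.71, a difference of 0.38 ± 0.22 (adjusted p = 0.375). Both pairs of groups overlapped. Ndufa3, an accessory subunit named after its values were seen, read 11.50 to 12.35 (median 11.87) and 12.70, 12.24 and 12.46, so that pancreatic tumor 2 alone, at 12.35, lay above the lowest pituitary tumor. Its difference was -0.58 ± 0.19 (adjusted p = 0.106). Without pancreatic tumor 2 it was -0.64 with an adjusted p of 0.0491, in a comparison that called 8.12% of all genes. Tumor 2 was the highest pancreatic tumor for Ndufa3, so leaving it out could only widen the difference.

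Complex II is also the succinate dehydrogenase of the tricarboxylic acid cycle. Its 4 subunits had a median difference of 0.05. Sdhd, in whose human counterpart inherited mutations cause paraganglioma, read from 9.77 to 12.50 (median 11.69) in the pancreatic tumors and 11.33, 10.56 and 10.67 in the pituitary tumors. Pancreatic tumor 5 held the 9.77, and the other 8 pancreatic tumors lay above all pituitary tumors. The difference was 0.72 ± 0.43 (adjusted p = 0.388), and without pancreatic tumor 5 it was 0.95 with an adjusted p of 0.0473, where 6.12% of all genes were called. Tumor 5 was the lowest pancreatic tumor, so leaving it out could only widen the difference. With each tumor left out in turn the adjusted p ran from 0.0473 to 0.711. On the second probe set of Sdhd the sites overlapped. Pancreatic tumors 10, 11 and 12 read 9.18, 9.45 and 9.17 there, and pituitary tumors 6, 7 and 8 read 9.38, 9.65 and 9.18. The difference on that probe set was 0.37 ± 0.26. Sdha, the flavoprotein that oxidizes succinate, ran the other way, at 9.41 to 11.84 (median 10.86) against 11.24, 11.03 and 11.46. Its difference was -0.45 ± 0.37 (adjusted p = 0.537). Another bright probe set of Sdha was at -1.12 ± 0.47, and its dim ones were at 0.29 and -0.16.

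Complex III and cytochrome c showed small differences. The 9 genes of complex III had a median difference of -0.10, within a range of -0.33 to 0.16. Uqcrb, a small subunit near the ubiquinone site, read 13.33 to 13.94 (median 13.54) and 13.87, 14.06 and 13.80, and its difference of -0.33 ± 0.15 was the lowest (adjusted p = 0.253). Uqcrh, the hinge subunit that contacts cytochrome c, read 12.37 to 13.51 (median 13.10) and 12.94, 12.79 and 12.88 (difference 0.16 ± 0.20, adjusted p = 0.701). For Cycs, somatic cytochrome c, the 12 tumors lay between 12.35 and 12.89, and the 95% interval of its difference of 0.06 ran from -0.24 to 0.37.

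In complex IV 14 of 17 genes were below 0, with a median difference of -0.36. With pituitary tumor 7 as the only pituitary tumor left, 9 of 17 were below 0 and the median was -0.04. Astrocyte genes had a mean signal of 10.83 and 10.73 in the pituitary tumors left out of that comparison, 6 and 8, and of 7.12 in pituitary tumor 7. Neuron genes, at 8.84, 8.12 and 5.59 in tumors 6, 8 and 7, and oligodendrocyte genes, at 8.49, 7.86 and 5.38, were likewise higher in the former pair. The part of these cells in the complex IV values was not tested. Cox6a1 read 13.12 to 14.24 (median 13.72) in the pancreatic tumors and 14.53, 14.32 and 14.40 in pituitary tumors 6, 7 and 8. On this probe set every pituitary tumor was thus above every pancreatic one. Pancreatic tumors 10, 11 and 12 were lowest, between 13.12 and 13.19. The difference was -0.78 ± 0.24 (adjusted p = 0.0949). Without pancreatic tumor 2 it was -0.85 with an adjusted p of 0.0422. That was the highest pancreatic tumor, so leaving it out could only widen the difference. With each tumor left out in turn the adjusted p ran from 0.0422 to 0.302. On the second probe set of Cox6a1 the groups overlapped. Pancreatic tumors 2 and 9 read 12.55 and 12.50 there, and pituitary tumor 7 read 12.49.

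Cox7a2l was the highest gene of complex IV by its difference. It read 11.62 to 12.59 (median 12.24) and 11.32, 11.81 and 11.75. Pancreatic tumor 2, at 11.62, was the lone pancreatic tumor within the pituitary range. The difference of Cox7a2l was 0.55 ± 0.19 (adjusted p = 0.136), and 0.61 with an adjusted p of 0.0475 without pancreatic tumor 2. As that was the lowest pancreatic tumor, leaving it out could only widen the difference. With each tumor left out in turn the adjusted p ran from 0.0475 to 0.461. All 3 probe sets of Cox7a2l and both of Cox6a1 had the same direction, between 0.52 and 0.69 and between -0.81 and -0.78. With tumors weighted by the agreement of their arrays with the fit, Cox6a1 (-0.76, adjusted p = 0.0271), Cox7a2l (0.64, adjusted p = 0.0237) and Ndufa3 (-0.62, adjusted p = 0.0245) passed, where 14.0% of all genes did. In that fit pancreatic tumors 2 and 5 had the lowest weights, 0.370 and 0.315. The genes most like Cox6a1 over the 12 tumors were Dcun1d4 (Pearson's r = 0.976), Mdh1, the cytosolic malate dehydrogenase (0.965), and Nrbp1 (0.960), and those most like Cox7a2l were Lrguk (0.945), Golm1 (0.933) and Stk32a (0.927).

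Complex V had a median difference of -0.08 over 17 genes. Atp5a1, the alpha subunit of the catalytic head, read 12.07 to 13.06 (median 12.52) and 12.91, 13.06 and 13.24, and pancreatic tumor 2 was again the single pancreatic tumor that reached the pituitary range. Its difference was -0.52 ± 0.18 (adjusted p = 0.136). The other probe sets of Atp5a1 were at -0.03 ± 0.39 and -0.30 ± 0.42. The former read 10.80 to 12.99 in the pancreatic tumors and 12.65, 12.12 and 12.69 in the pituitary tumors. The beta subunit Atp5b, which carries the catalytic sites, read 11.24 to 13.43 (median 13.14) and 13.20, 12.47 and 13.13, a difference of -0.05 ± 0.39. Subunit c of the membrane ring is made from 3 genes that encode the same mature protein. Atp5g2 read 10.60 to 12.56 (median 11.76) and 11.47, 11.08 and 11.06 (difference 0.63 ± 0.34, adjusted p = 0.331). Atp5g1 and Atp5g3 had differences of 0.06 and -0.14.

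**Figure D3:**
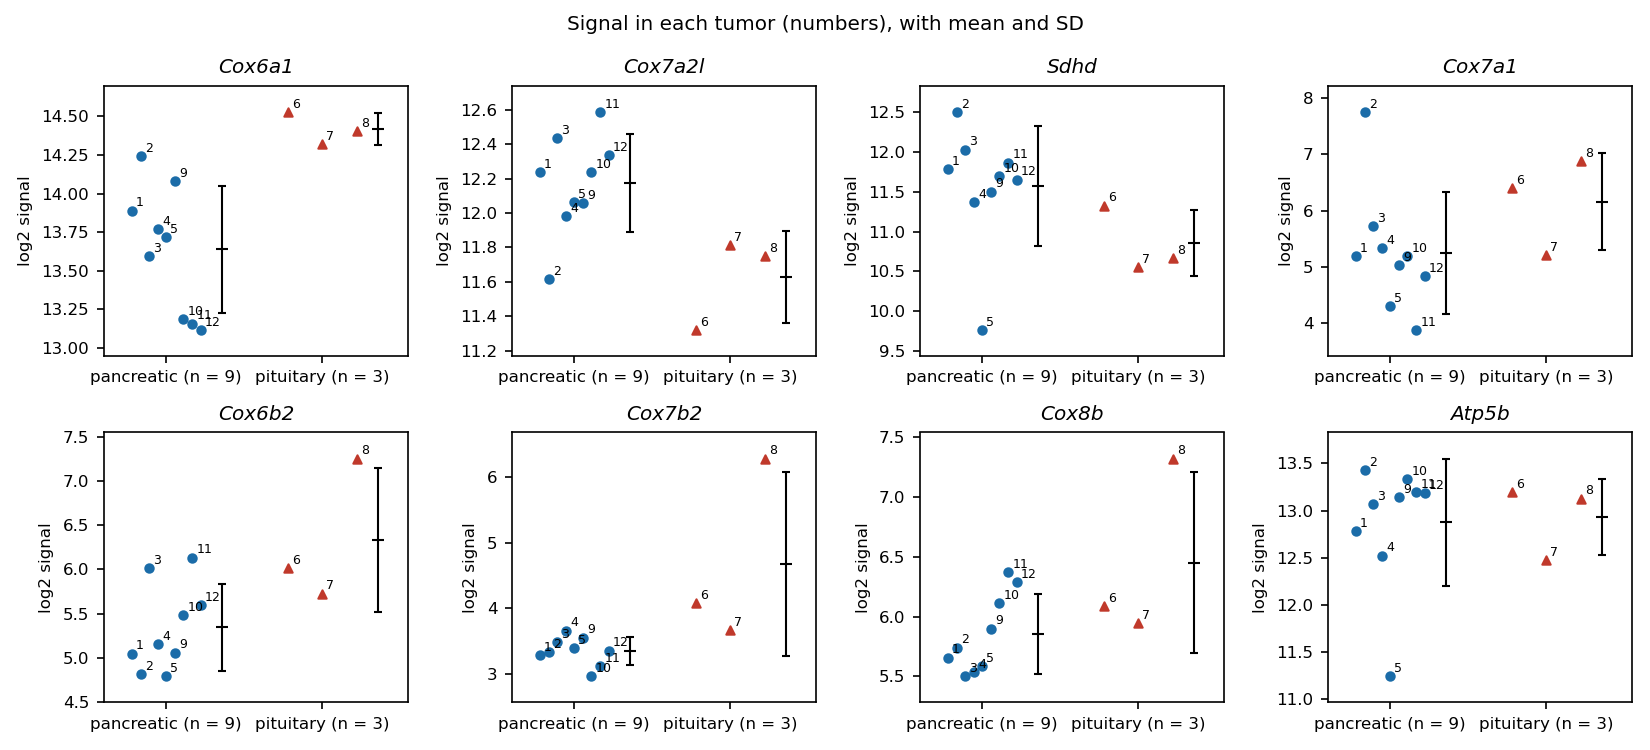
Log2 signal (y axis, a separate scale in each panel that does not start at 0) of 8 genes in each numbered tumor, for 9 pancreatic (blue circles) and 3 pituitary tumors (red triangles), with the mean and SD beside each group. Cox6a1 has no overlap between the groups, Cox7b2, Cox6b2 and Cox8b are highest in pituitary tumor 8, Cox7a1 is highest in pancreatic tumor 2, and Sdhd and Atp5b are lowest in pancreatic tumor 5.

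The tissue-restricted isoforms were looked at with their broadly used partners, 20 of 21 listed genes being members and Cyct the other one. Of the members 0 passed the test, and their median difference was -0.18. Cox7b2, the testis isoform of Cox7b, read 2.96 to 3.66 (median 3.35) in the pancreatic tumors, 4.07 and 3.67 in pituitary tumors 6 and 7, and 6.28 in pituitary tumor 8. Tumor 8 alone read above the median of its array. The difference was -1.33 ± 0.41 (adjusted p = 0.0908). Without pituitary tumor 7 it was -1.83 (adjusted p = 0.0223, 6.98% of all genes called), and without pituitary tumor 8 it was -0.53. Pituitary tumor 7 was the lowest of the pituitary tumors, so leaving it out could only widen the difference. With each tumor left out in turn the adjusted p ran from 0.0223 to 0.244.

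Cox6b2, another testis isoform, read 4.79 to 6.13 (median 5.15), with 6.01 and 5.73 in pituitary tumors 6 and 7 and 7.26 in tumor 8 (difference -0.99 ± 0.36, adjusted p = 0.148). Cox8b, which is used in heart, muscle and brown fat, read 5.50 to 6.37 (median 5.74), with 6.08, 5.95 and 7.32 (difference -0.59 ± 0.29, adjusted p = 0.280). Cyct, the testis cytochrome c, read 7.41 in pituitary tumor 8 and 7.76 in pancreatic tumor 5, and 3.55 to 4.20 in the other 10 tumors. Thus pituitary tumor 8 was the highest of the 12 tumors for Cox7b2, Cox6b2 and Cox8b, and the second highest for Cyct. The muscle isoform Cox7a1 was also second highest in pituitary tumor 8, at 6.88, behind pancreatic tumor 2 at 7.75. Not all tissue isoforms were high there. Cox8c, also a testis isoform, was lowest in this tumor at 7.64, although its second probe set was highest there at 6.57. Cox4i2 (6.11) and Cox6a2 (7.11) lay within the range of the other tumors. Over the 84 genes pituitary tumor 8 was the highest for 7 (8.33%), a share close to the 8.53% of all genes. In the same tumor the choroid plexus genes, a list added after the values were seen, had a median deviation of 1.87, with all 8 above the array median and a mean signal of 8.40. In the other 11 tumors the deviation was -0.61 to 0.04 and the mean signal 5.68 to 6.72, with 3 to 5 genes above the array median. Otx2, of that list, was at 8.10 there and at 2.72 to 3.24 elsewhere. The part of these cells in the isoform values was not tested.

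The genes most like Cox7b2 over the 12 tumors were Slc4a5 (Pearson's r = 0.983), Zic5 (0.981) and Nhlh2 (0.980), all of which were highest in pituitary tumor 8, so these correlations rest on 1 tumor. Cox6b2 was most like Igsf21 (0.911), Tbc1d9 (0.897) and Tppp3 (0.889), and Cox8b most like Plk5 (0.947), Spaca9 (0.927) and Ntn1 (0.923). All of these were highest in pituitary tumor 8 except Tppp3.

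Cox7a1, the heart and muscle isoform of Cox7a, had the largest spread of the 84 genes, with an SD of 1.09 over the pancreatic tumors. It was at 7.75 in pancreatic tumor 2, 3.88 to 5.73 in the other pancreatic tumors, and 6.40, 5.20 and 6.88 in the pituitary tumors. Its difference was -0.91 ± 0.64 (adjusted p = 0.467), and 0.04 with pituitary tumor 7 as the only pituitary tumor. The genes most like it were Aamdc (r = 0.972), Gpam (0.952) and Notch2 (0.951). Skeletal muscle genes had a median deviation of 0.04 in pancreatic tumor 2, and hepatocyte genes one of 6.67. Their part in the Cox7a1 value was not tested.

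Among the other isoforms, the lung isoform Cox4i2 (5.79 to 6.76) and the muscle isoform Cox6a2 (6.67 to 7.48) had differences of 0.22 and -0.04, and the testis isoform Cox8c (7.64 to 8.36) one of 0.21. The broadly used partners Cox4i1, Cox6b1, Cox7a2 and Cox8a had differences of -0.36, -0.39, -0.21 and -0.38. Ndufa4, named as a complex I subunit and since assigned to complex IV, read 11.21 to 12.93 over the 12 tumors, with a difference of -0.14 ± 0.30. Ndufa4l2, its counterpart that hypoxia induces, read 6.34 to 6.90 in 9 tumors and 7.49, 7.76 and 7.47 in pancreatic tumors 10, 11 and 12. Cox7c, a small subunit with the second largest spread (SD 0.82), read 4.43 to 7.10 in the pancreatic tumors and 6.22, 5.48 and 5.47 in the pituitary tumors, near the array median.

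The pancreatic tumors differed among themselves. Over the 84 genes the median deviation from the 12-tumor mean was 0.37 in pancreatic tumor 2 and -0.32 in pancreatic tumor 5, and it lay between -0.13 and 0.18 in the other 10 tumors. Over all genes it was 0.01 in tumor 2, -0.13 in tumor 5 and between -0.11 and 0.04 in the others. Among the 9 pancreatic tumors, tumor 2 was the highest for 43 genes (51.2%, against 22.6% of all genes) and tumor 5 the lowest for 37 (44.0%, against 21.6%). For all 4 genes of complex II tumor 2 was the highest and tumor 5 the lowest on the probe sets that stood for them. Other probe sets did not all show this order. Another of Sdha read 10.02 in tumor 5 and 8.98 in tumor 11. The second of Sdhc read 9.29 in tumor 2 and 10.13 in tumor 10, and that of Sdhd 9.81 in tumor 5 and 9.17 in tumor 12.

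**Figure D4:**
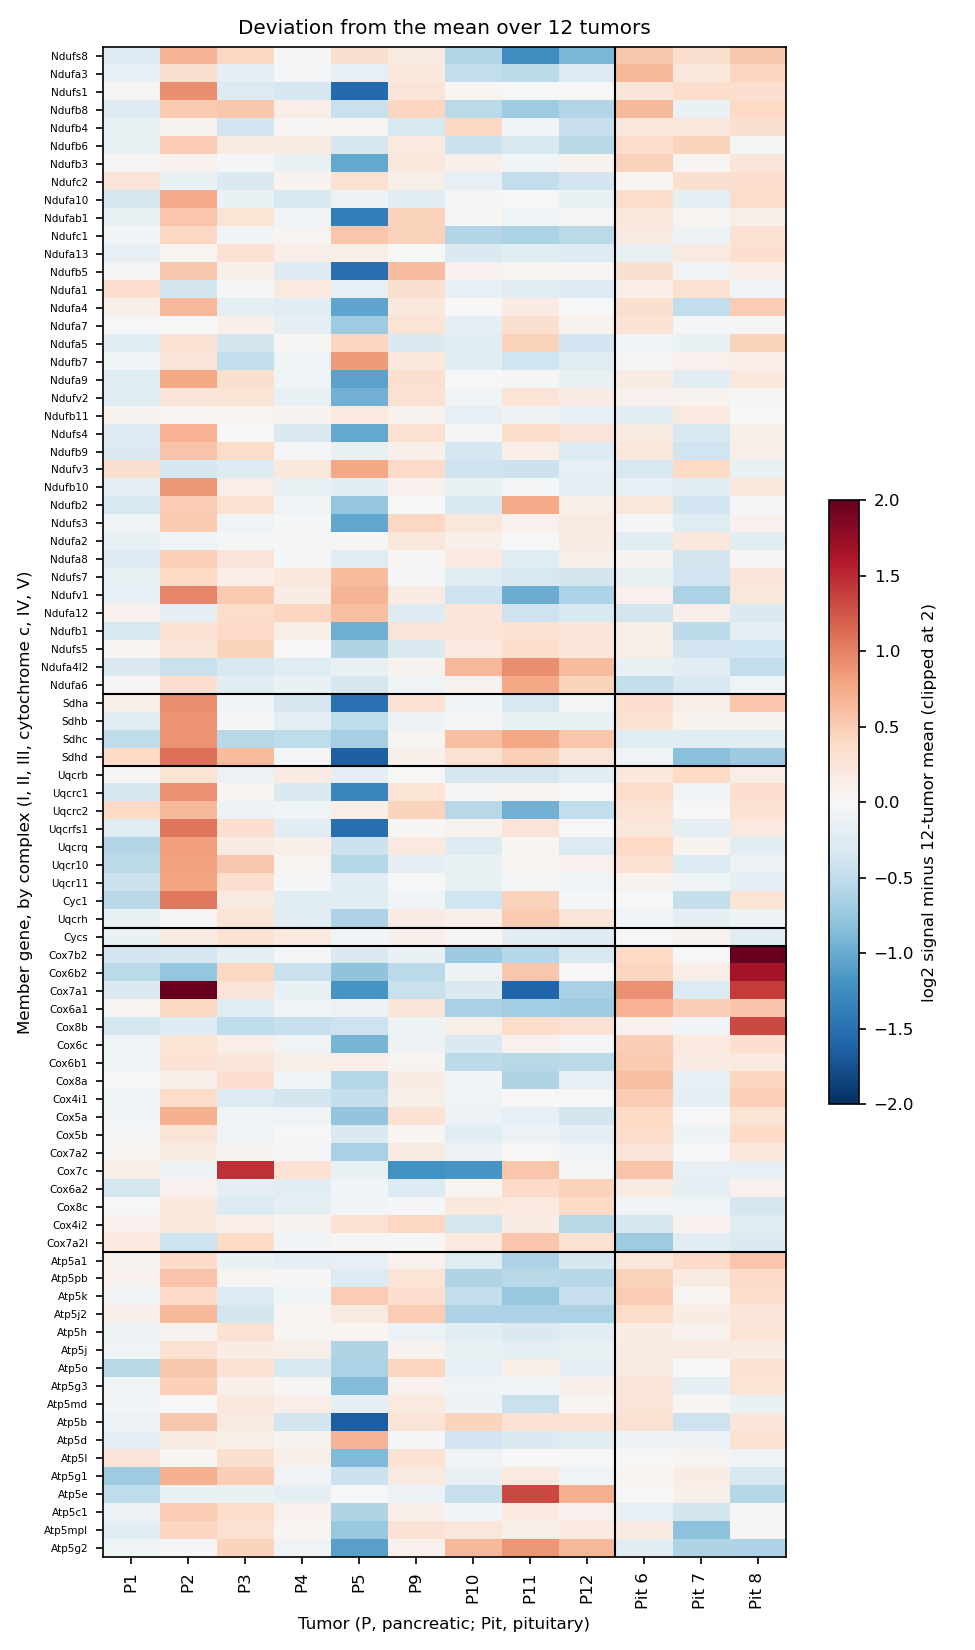
Log2 signal minus the 12-tumor mean (colour, red above and blue below, clipped at 2) for the 84 genes (rows, by complex) in the 12 tumors (columns, P pancreatic and Pit pituitary). The column of pancreatic tumor 2 is mostly red, with a median of 0.37, that of pancreatic tumor 5 holds both the deepest blue rows and some red ones, and Cox7b2, Cox6b2 and Cox8b are red in pituitary tumor 8.

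The genes named for single tumors here were chosen after their values were seen. Pancreatic tumor 2 exceeded the mean of the other pancreatic tumors by at least 1 log2 unit for 9 of the 84 genes (10.7%, against 12.2% of all genes). After Cox7a1 (2.82) these were Uqcrfs1, the Rieske iron-sulfur protein of complex III (1.23), Sdha (1.18), Cyc1, cytochrome c1 (1.17), Ndufs1 (1.17), Uqcrc1 (1.11), Ndufv1 (1.07), Sdhb (1.06) and Sdhd (1.04). By complex the median was 1.05 for complex II and 0.89 for complex III, 0.51 for complex V, 0.46 for complex I and 0.22 for complex IV. The tricarboxylic acid cycle genes had a median deviation of 0.88 in this tumor, the assembly factors 0.78 and the genes of mitochondrial biogenesis 0.75. In this tumor hepatocyte genes were high and neuroendocrine genes low, as given above. In pancreatic tumors 3 and 4 the hepatocyte list had median deviations of 3.18 and 3.70, and the 84 genes 0.13 and -0.04. The part of these cells was not tested.

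Pancreatic tumor 5 was lower than the mean of the other pancreatic tumors by at least 1 log2 unit for 18 of the 84 genes (21.4%, against 12.3% of all genes). The lowest were Sdhd (-2.03), Atp5b (-1.84), Uqcrfs1 (-1.67), Ndufb5 (-1.64), Ndufs1 (-1.63), Sdha (-1.56), Ndufab1, the mitochondrial acyl carrier protein (-1.49), and Atp5g2 (-1.40). Other genes of the same complexes were high in this tumor, among them Ndufb7 (0.98), Ndufv3 (0.86), Atp5d (0.78) and Ndufs7 (0.68). The genes most like Sdhd over the 12 tumors were Dpy30 (r = 0.976), Otulin (0.950) and Clp1 (0.945), and those most like Atp5b were Slc25a11, the mitochondrial oxoglutarate carrier (0.983), Trappc4 (0.970) and Jmjd4 (0.945). All 6 were lowest in pancreatic tumor 5. Within complex I the differences to the other pancreatic tumors thus ran from -1.64 to 0.98.

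Pancreatic tumor 5 also stood apart in its control probe sets and in the span between the probe sets of a gene. In pancreatic tumor 5 the 3′ probe set of Actb exceeded the 5′ one by 3.48 and that of Gapdh by 2.29, against 0.57 to 2.20 and -0.22 to 0.96 in the other tumors. Of the 84 genes, 43 had several probe sets above the array median in all 12 tumors. After each probe set was set to its own 12-tumor mean, the probe sets of a gene spanned a median of 0.84 in tumor 5 and of 0.11 to 0.38 in the other tumors, and 14 of the 43 genes spanned more than 1 in tumor 5, 4 in tumor 11 and 1 in tumor 12. Over 3483 genes of all kinds the median span in tumor 5 was 0.84 as well, and 40.1% spanned more than 1 there, against 18.6% in tumor 11 and 14.1% in tumor 12. For Ndufb5 the 2 probe sets read 10.40 and 11.78 in tumor 5, and the second read 11.01 to 12.24 in the other 11 tumors. For Sdhd the second probe set read 9.81 in tumor 5, within its range elsewhere. The part of RNA end bias in the low values of this tumor was not tested.

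**Figure D5:**
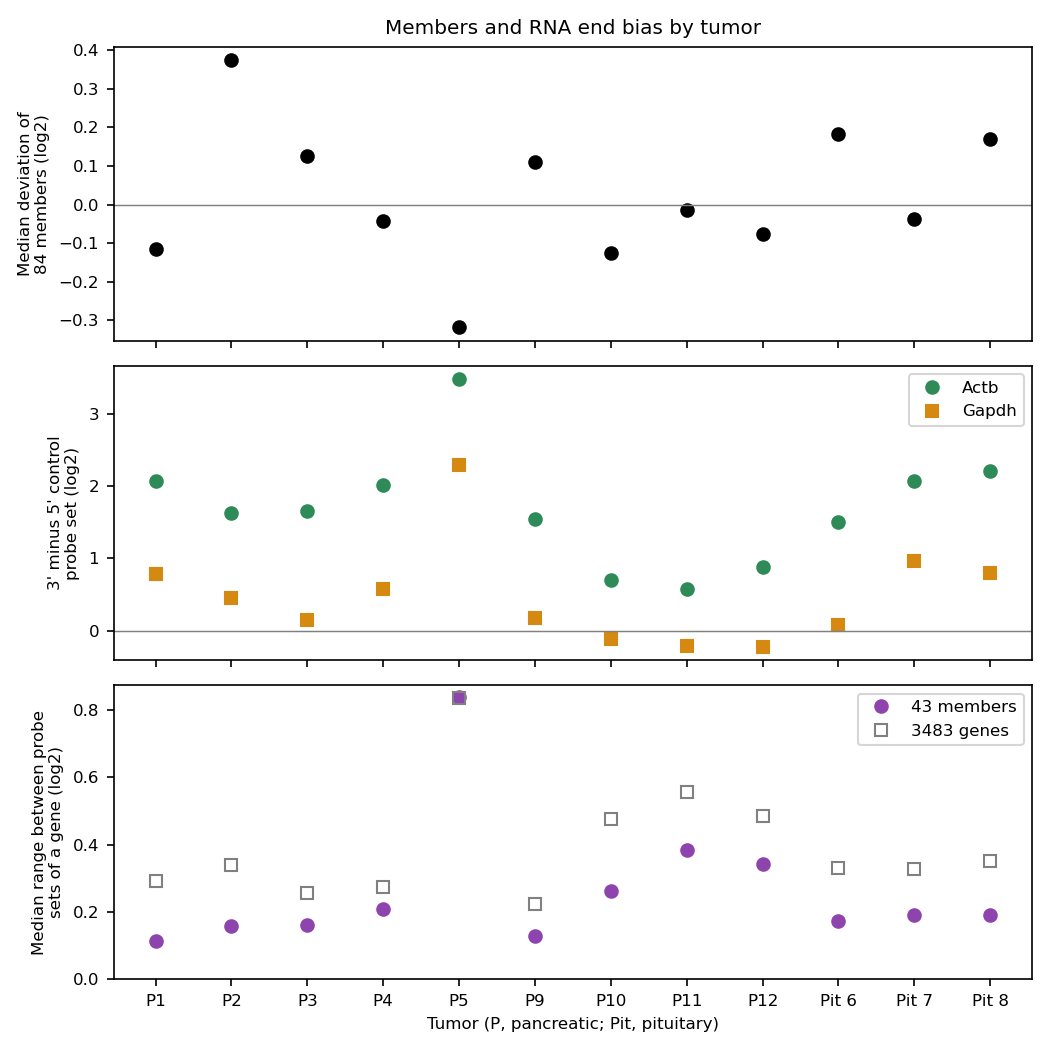
For each tumor (x axis), the median deviation of the 84 genes (top, log2), the 3′ minus 5′ control signal of Actb and Gapdh (middle, log2) and the median span between probe sets of a gene for 43 of the 84 genes and for 3483 genes (bottom, log2). Pancreatic tumor 5 has the lowest point at the top (-0.32) and the highest in the middle (3.48 for Actb) and at the bottom (0.84), and pancreatic tumors 10 to 12 have the lowest points in the middle.

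Pancreatic tumors 10 to 12 shared a pattern of their own. Their median difference to the other pancreatic tumors was -0.04, yet for 18 of the 84 genes (21.4%, against 7.59% of all genes) all 3 lay below all the others. The lowest were Ndufs8 (-1.14) and Ndufv1 (-1.07), both core subunits of complex I, and Uqcrc2 (-0.91), a core subunit of complex III, while Ndufa4l2 (0.97), Sdhc (0.86) and Atp5g2 (0.85) were high. These tumors had the smallest 3′ to 5′ control differences, 0.57 to 0.87 for Actb and -0.22 to -0.12 for Gapdh. For Ndufs8, 2 of 6 probe sets showed this separation and 4 did not.

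Over the 9 pancreatic tumors the median Pearson correlation between 2 of the 84 genes was 0.27 over 3486 pairs, against 0.01 for pairs of all genes. It was 0.29 over the 2542 pairs whose genes belong to different complexes. Within a complex it was 0.67 for complex II, 0.61 for complex III, 0.35 for complex V, 0.18 for complex I and 0.10 for complex IV. Without tumors 2 and 5 it was 0.17 over all pairs, 0.18 between complexes, 0.07 within complex II and 0.48 within complex III. These pairs share the same arrays and are given as a description.

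Other mitochondrial genes were counted on the same fit, and 0 passed in any list, where 5.92% of all genes did. At an unadjusted p under 0.05, where 23.5% of all genes passed, there were 3 of 40 measured assembly factors, 5 of 17 genes of the tricarboxylic acid cycle and pyruvate dehydrogenase, 1 of 18 genes of mitochondrial biogenesis and transcription, and 5 of 12 genes of ATP, phosphate and proton exchange. The median differences of these lists were -0.04, -0.15, -0.01 and -0.34. Among the assembly factors Ttc19, which acts on complex III, read 6.22 to 7.94 in the pancreatic tumors and 8.44, 8.38 and 8.04 in the pituitary tumors, without overlap (difference -0.99 ± 0.29, adjusted p = 0.0730). Sco2, which delivers copper to complex IV, had a difference of 0.74 ± 0.41. Of the cycle genes, Pdha1 of pyruvate dehydrogenase (-0.72 ± 0.22, adjusted p = 0.0839) and Suclg2, the GDP-forming succinyl-CoA ligase subunit (0.91 ± 0.33, adjusted p = 0.150), had the widest differences.

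Ppargc1a, the coactivator of mitochondrial biogenesis, separated tumors rather than sites. It read 9.31 in pancreatic tumor 2, 8.29 and 8.93 in pituitary tumors 6 and 8, 5.45 in pituitary tumor 7 and 4.03 to 6.47 in the other pancreatic tumors (difference -2.12 ± 1.05, adjusted p = 0.294). Polg2, the accessory subunit of the mitochondrial DNA polymerase, had a difference of 1.01 ± 0.45 (adjusted p = 0.239). Ckmt1, the mitochondrial creatine kinase, read 5.21 in pancreatic tumor 2, 7.53 to 8.98 in the other pancreatic tumors and 9.72, 8.72 and 9.92 in the pituitary tumors (difference -1.46 ± 0.65, adjusted p = 0.241). Slc25a31, a testis ADP/ATP carrier, was at 6.64 in pituitary tumor 6 and at 2.67 to 3.18 in the other 11. The 1 measured transcript of the mitochondrial genome, ND5 of complex I, read 12.73 to 14.03 in the pancreatic tumors and 13.90, 13.12 and 13.68 in the pituitary tumors, with a difference of -0.18 ± 0.24 (adjusted p = 0.725).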

How the data were processed

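RNA of 9 pancreatic and 3 pituitary tumors was hybridized to Affymetrix mouse arrays, with an array for each tumor. The deposited table holds 1 log2 signal per probe set and tumor, which the authors had normalized between arrays. The submitters' processing notes name Partek, the study's methods name both Partek and RMA, and no source used here tells which of them made these values. No further normalization was applied. After 64 of 45101 probe sets were left out as controls, 45037 were tested, and 34945 had 1 symbol in the platform annotation. Tumors were grouped by their labels. The fit was made in R 4.3.3 with limma 3.58.1 (lmFit, then eBayes) on all 12 tumors, without covariates, with Benjamini-Hochberg adjustment over all probe sets and a threshold of 0.05. The fitting step was tested on simulated data. Pancreatic tumors that stand apart were sought with Dixon's test. Tables and figures were made with matplotlib 3.10.9, pandas 2.3.3, numpy 2.4.6 and scipy 1.17.1 under Python 3.11.15.

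The genes, lists and tests were chosen with earlier results of these data known. Named are, per complex, the member with the largest difference each way, tissue isoforms, the widest genes of each list, up to 6 genes that stand apart by Dixon's test, the 4 with the largest SD, and up to 3 most similar genes. RefSeq promoter windows (250 bases before and 50 after the start) were used for motifs. Alternatives were other scalings, variances, filters and probe set rules, array weights, and tumors left out. P-values measure the spread between tumors, and arrays of normal tissue were not analysed here.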

Additional observations from a re-analysis of the deposited data

Results flagged for a closer look

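Among the 9 pancreatic tumors, 17 of the 84 oxidative phosphorylation genes (20.2%, against 16.2% of all genes) had 1 tumor whose gap to the nearest other tumor was large for the range of the group by Dixon's test, a test that chance alone passes for about 1 in 20 groups. Pancreatic tumor 5 was the lowest for 13 of them and pancreatic tumor 2 the highest for 4. Pancreatic tumor 5 stood apart with log2 signals of 11.24 for Atp5b, 10.60 for Atp5g2, 12.31 for Atp5g3, 11.91 for Atp5l, 11.84 for Cox6c, 12.52 for Cox7a2, 11.21 for Ndufa4, 10.05 for Ndufab1, 9.51 for Ndufb3, 10.40 for Ndufb5, 10.38 for Ndufs3, 11.20 for Ndufv2 and 9.77 for Sdhd, all below the other 8 pancreatic tumors. Pancreatic tumor 2 stood apart with 7.75 for Cox7a1, 12.22 for Ndufa10, 11.65 for Ndufb10 and 12.22 for Sdhb, above the other 8. The 3′ to 5′ control values of tumor 5 and the hepatocyte values of tumor 2 are given with the results, and their part in these values was not tested.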

How the results depend on the processing

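The count of called genes was 0 in both directions in the main analysis and under quantile normalization, median centring, a trended and robust variance, an unmoderated variance, averaging the probe sets of each gene and a filter at the array median. A demand for a log2 difference over 1 gave 0 too, but it can only remove calls and so tests nothing here. With array weights 2 genes passed as higher in the pituitary and 1 as higher in the pancreatic tumors, and without pancreatic tumors 2 and 5 together, a setting chosen after seeing the data, 1 and 2. Of all genes 14.0% and 9.31% passed in these settings. Leaving out single tumors gave 0 to 2 genes higher in the pituitary and 0 to 1 higher in the pancreatic tumors. The calls came without pancreatic tumor 2 (Cox6a1, Ndufa3 and Cox7a2l), pancreatic tumor 5 (Sdhd) or pituitary tumor 7 (Cox7b2). For each of these genes the tumor left out lay furthest of its group toward the other site, so its loss could only widen the difference. With single tumors left out limma's adjusted p ran from 0.0422 to 0.302 for Cox6a1, from 0.0475 to 0.461 for Cox7a2l and from 0.0223 to 0.244 for Cox7b2. Over all settings its lowest value was 0.0271 for Cox6a1, 0.0237 for Cox7a2l and 0.0223 for Cox7b2. The median difference of the 84 genes stayed below 0 in every setting, from -0.22 to -0.03, and from -0.21 to -0.05 with single tumors left out. The -0.03 came with pituitary tumors 6 and 8 left out, where the median over all genes was -0.01. With the filter at the array median it was -0.11 for the 84 genes and -0.03 for all genes.

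Signs of named genes turned in 38 comparisons, all for genes that were called in no setting. With probe sets averaged, Atp5g1 was at -0.36, Cox7c at 0.046, Cox8c at -0.0032 and Cycs at -0.18. Cox6a2 was at 0.0036 after median centring and 0.12 after quantile normalization. With pituitary tumors 6 and 8 left out, so that the lone pituitary tumor is assumed to vary like the others, Atp5b was at 0.40, Atp5g1 -0.14, Atp5g3 0.17, Cox4i1 0.087, Cox4i2 -0.038, Cox6a2 0.17, Cox7a1 0.044, Cox7c 0.14, Cox8a 0.077, Cycs -0.048, Ndufa4 0.46, Ndufb5 0.034 and Uqcrfs1 0.15. Without pancreatic tumors 2, 3 and 4, Atp5g1 was at -0.12, Cox6a2 at 0.0089 and Cycs at -0.040, and without tumors 2 and 5 Atp5b was at 0.10. With single tumors left out, ranges that crossed 0 were -0.28 to 0.15 for Atp5b, -0.082 to 0.16 for Atp5g1, -0.14 to 0.037 for Cox6a2, -0.29 to 0.14 for Cox7c, -0.016 to 0.12 for Cycs, -0.44 to 0.054 for Ndufa4, -0.26 to 0.018 for Ndufb5 and -0.24 to 0.081 for Uqcrfs1. The cause of these changes was not tested. The study reports some mice with tumors at both sites. No paired analysis was possible because no source used here tells which tumors came from the same mouse. Low signals limit the reading of Cox7b2, Cox6b2, Cox8b, Cox7a1, Cox7c and Ndufb4, whose probe sets lay at or below the array median in 3 or more tumors.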
